A study of Mus musculus with 9 samples.

Results

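The nuclear genes of the mitochondrial respiratory chain and the ATP synthase were followed in TtT/GF cells, a mouse line of pituitary folliculostellate cells, through a short exposure to NECA. Members were all probe sets with a single annotated gene symbol that begins with Nduf, Uqcr, Cox4 to Cox8 or Atp5, or that is Sdha, Sdhb, Sdhc or Sdhd. This rule, which used no measured value, found 71 of the 8251 named genes on the array, with 98 of its 12422 probe sets. The study held 9 arrays (a murine Affymetrix GeneChip) in 3 groups of 3: cells with no treatment, cells with 10 µM NECA for 30 min and cells with 10 µM NECA for 120 min. The compound, 5'-N-ethylcarboxamidoadenosine, acts on adenosine receptors as a stable analog of adenosine. All groups shared the line and a medium with heat-inactivated fetal bovine serum, and the design text describes the replicates as separate cultures. All cultures were of 1 line, and the labels give neither a vehicle nor a collection time for the untreated cells, so handling and NECA cannot be told apart.

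The respiratory chain passes electrons from NADH (through complex I) and succinate (through complex II) by way of ubiquinone, complex III and cytochrome c to oxygen at complex IV. Complexes I, III and IV pump protons across the inner mitochondrial membrane, and the ATP synthase, also called complex V, uses the returning protons to make ATP. Most subunits are encoded in the nucleus, and only these were measured here. Their genes are known to depend on transcription factors such as NRF1 and the ETS-family factor GABP.

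By role, the members were 38 probe sets for 29 complex I genes, 4 for the complex I assembly factors Ndufaf1 and Ndufaf4, and 4 for the 4 subunits of complex II. A further 7 measured complex III, 23 measured complex IV including the supercomplex factor Cox7a2l, and 22 measured the ATP synthase. Of the 98, 75 probe sets for 64 genes exceeded a signal of 20.5 (the 40th percentile) on 3 or more arrays and were tested. The 23 left out were the single probe sets of Ndufa12, Ndufs4, Cox7a1 and Cox8a, both of Cox5a and of Cox8b, all 3 of Cox6b2, 2 of the 4 of Ndufb2, and 1 each of Ndufa1, Ndufb6, Ndufb7, Ndufb10, Ndufaf1, Ndufaf4, Cox6c, Cox8c, Atp5d and Atp5g2. Cox7a1 and Cox8b are isoforms known from heart and skeletal muscle. A low signal of 1 probe set need not mean that its gene is silent: the widely expressed Cox5a and Cox8a, of complex IV, were among those left out.

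Promoter windows were read from RefSeq (build GRCm38.p6) as the 250 bases before an annotated start. Windows were found for 58 of the 71 genes, 63 windows in all, and each was searched on both strands. An NRF1 motif (GCGC and TGCGC with 1 base between them) was in 15.9% of the member windows and in 3.74% of all 32851 windows of the same length. The ETS motif CCGGAAG was in 19% of the member windows and in 6.91% of all windows, and either of these motifs was in 31.7% against 10.1%. The cAMP response element TGACGTCA was in 3.17% against 1.55%, its first 5 letters TGACG in 31.7% against 17.8%, the YY1 motif AAGATGGC in 1.59% against 1.56%, and the GC box GGGCGG in 39.7% against 32.7%. TGACG lies within TGACGTCA, so those shares overlap. Member windows were 56.6% G and C, against 53.2% in all windows. A match is a description of letters and does not show binding. The windows of 5 members whose signals are described in the text are shown 5′ to 3′ on the strand of the gene, with NRF1, ETS and TGACGTCA matches in capitals. Ndufb6, Uqcrh and Cox6b1 each hold an ETS match, Sdha holds NRF1 matches, and Atp5o holds neither.
Ndufb6 (chr4:40279422-40279671, minus strand): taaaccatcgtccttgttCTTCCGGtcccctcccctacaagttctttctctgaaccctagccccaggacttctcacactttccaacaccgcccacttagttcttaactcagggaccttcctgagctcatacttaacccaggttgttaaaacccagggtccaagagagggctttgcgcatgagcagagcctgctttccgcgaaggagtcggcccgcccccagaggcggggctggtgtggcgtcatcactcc
Uqcrh (chr4:116075071-116075320, minus strand): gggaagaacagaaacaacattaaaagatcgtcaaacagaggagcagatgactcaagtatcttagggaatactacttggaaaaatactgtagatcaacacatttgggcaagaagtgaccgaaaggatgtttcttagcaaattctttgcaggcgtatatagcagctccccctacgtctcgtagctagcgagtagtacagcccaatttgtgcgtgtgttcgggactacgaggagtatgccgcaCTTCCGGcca
Cox6b1 (chr7:30626115-30626364, minus strand): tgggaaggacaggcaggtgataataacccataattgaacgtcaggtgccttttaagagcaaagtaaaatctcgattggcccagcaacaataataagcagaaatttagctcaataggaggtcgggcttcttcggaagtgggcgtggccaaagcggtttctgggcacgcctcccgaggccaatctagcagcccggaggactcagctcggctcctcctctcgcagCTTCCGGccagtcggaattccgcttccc
Sdha (chr13:74350241-74350490, minus strand): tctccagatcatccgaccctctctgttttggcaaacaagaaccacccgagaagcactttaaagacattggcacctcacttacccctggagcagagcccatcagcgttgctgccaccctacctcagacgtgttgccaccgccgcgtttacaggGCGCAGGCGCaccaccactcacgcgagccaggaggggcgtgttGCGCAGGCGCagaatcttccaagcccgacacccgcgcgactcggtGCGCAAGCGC
Atp5o (chr16:91931631-91931880, minus strand): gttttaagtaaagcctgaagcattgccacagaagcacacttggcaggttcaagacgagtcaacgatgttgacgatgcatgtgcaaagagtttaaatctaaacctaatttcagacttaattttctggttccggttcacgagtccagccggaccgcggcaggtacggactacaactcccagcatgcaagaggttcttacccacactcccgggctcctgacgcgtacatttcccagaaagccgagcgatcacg
The ETS match began 232 bases before the start in Ndufb6, 28 bases before it in Cox6b1 and 10 bases before it in Uqcrh. The signals of these 3 did not share a direction, as given with the values of each complex. Ndufb6 was on the higher side in both NECA groups, Cox6b1 on the lower side in both, and Uqcrh differed between NECA arrays. An ETS match was in 12 member windows, and these 3 were shown because their signals are described in the text. The log2 differences of the others at 120 min were 0.35 for Atp5e, 0.18 for Cox6a1, 0.15 for Ndufs3 and Uqcr11, and 0.13 for Sdhd and Ndufb7. Ndufaf1 was at −0.19 and Atp5j at −0.08, and Atp5l had probe sets of opposite sign. Whether a match goes with a direction was not tested.

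Signals are linear MAS5 intensities, and the median signal of an array was 33.2 to 38.4 over all probe sets. A level is given as this signal, and a difference as log2 of the signal plus an offset of 7.93, which understates the fold of dim probe sets. Levels of different probe sets are not compared, since each binds its target differently. The lowest correlation of an array with another of its group was 0.947 to 0.974, and the 30 min replicates 2 and 3 had the 0.947. The ratio of the 3′ to the 5′ Gapdh probe set is a sign of RNA and labelling quality, and it is a raised ratio that marks poor RNA. It averaged 0.995 ± 0.028 without treatment, then 0.921 ± 0.038 and 0.947 ± 0.029 after 30 and 120 min of NECA (SD, n = 3). Its lowest value, 0.879, was on the 30 min replicate 3, which also had the lowest actin ratio (1.10). The labels name no batch. The folliculostellate markers Anxa1, Gja1, Cst3 and Aldh1a1 gave clear signals, while S100b and Gfap were dim and Sox2, Fgf2 and Vim did not pass the signal filter.

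No member probe set passed the test in any comparison (limma, Benjamini-Hochberg adjusted over all 7851 tested probe sets, threshold 0.05). At 30 min against untreated, 0 of 75 members were higher, where 0.357% of all tested probe sets were, and 0 were lower, where 0% were. At 120 min, 0 were higher and 0 lower, against 1.83% and 1.54% of all tested. Between 120 and 30 min, 0 were higher and 0 lower, against 1.35% and 1.62%, and 0 passed the F-test over the 3 groups, against 3.1%. Shares of 0% are near these background shares. The lowest adjusted p among members was 0.531 at 30 min, 0.111 at 120 min and 0.137 between the times.

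At an unadjusted p under 0.05, 7 members were higher and 1 was lower at 30 min, against 3.87% and 4.7% of all tested probe sets. At 120 min 4 were higher and 2 lower (all tested: 6.42% and 8.93%), between the times 2 were higher and 0 lower (6.02% and 6.97%), and 3 had such a p in the F-test (14.4%). The 95% interval of the change lay within 2-fold in either direction for 71 of 75 members at 30 min, for 68 at 120 min and for 70 between the times, where the shares over all tested probe sets were 90.1%, 86.8% and 87.6%. The members with a wider interval were, in 1 comparison or more, Uqcrh, Uqcrb, Cox6b1, Cox7a2, Ndufa9, Atp5mpl, 1 probe set each of Ndufa3 and Cox6c, and the dim probe set of Atp5d.

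The members' median log2 difference was 0.05 at 30 min and 0.13 at 120 min, and 0.002 between the times. Without the signal filter the 30 min median turned to −0.02, over 98 probe sets. Over all tested probe sets the medians were −0.04, −0.04 and −0.01. A positive difference was found for 40 of the 75 members at 30 min (44.3% of all tested), for 50 at 120 min (43.5%) and for 40 between the times (48.6%). Both comparisons with untreated cells use the same 3 untreated arrays. Signal level moved with this shift. Among the 55 members with a mean signal over 100, the median was 0.15 at 30 min and 0.15 at 120 min, where all 3588 such probe sets had 0.02 and 0.02. Of these 55, 38 were positive at 30 min (54.2% of all such probe sets) and 45 at 120 min (52.8%). The 20 dimmer members had medians of −0.17 and −0.16, where all dimmer probe sets had −0.09 and −0.10. The part of signal level, and of the Gapdh ratio, in these differences was not tested. The Gapdh ratio was used only as a covariate in an alternative fit, whose medians are not given here.

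**Figure D1:**
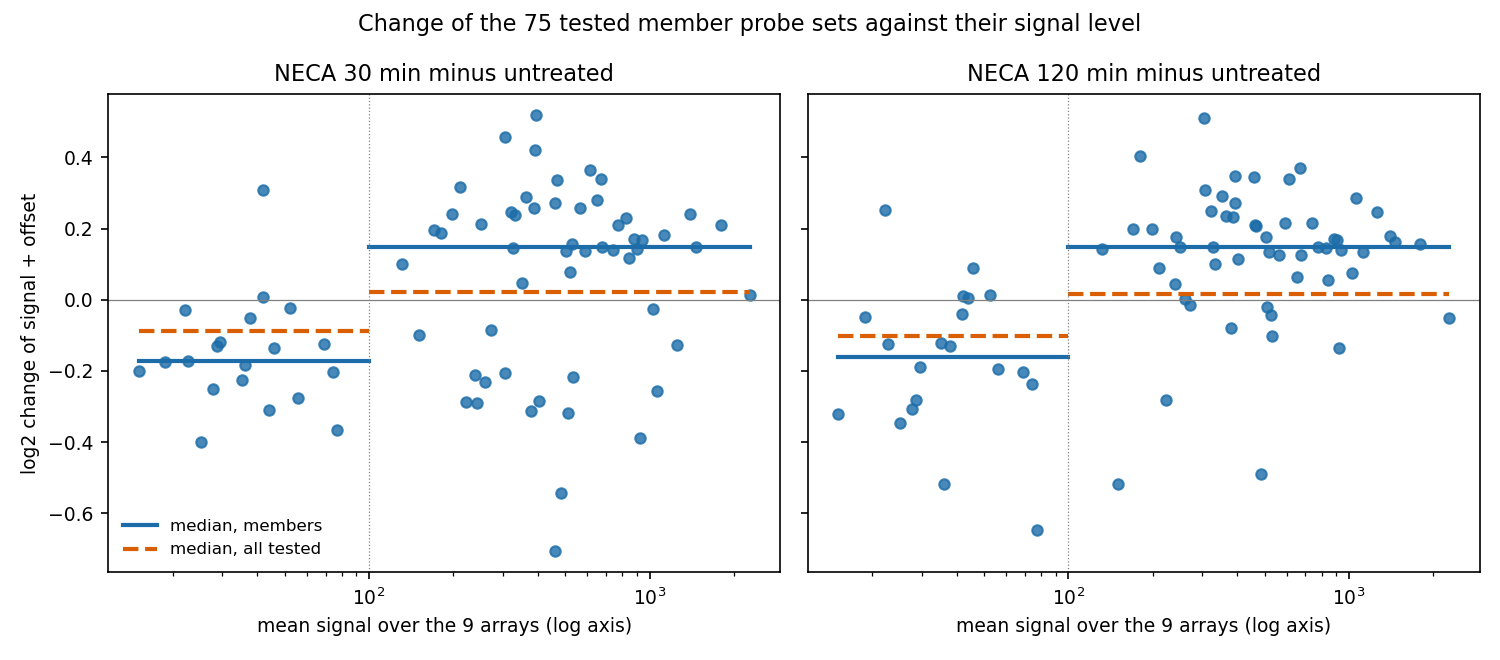
Each point is 1 of the 75 tested member probe sets, with its mean signal over the 9 arrays on a log axis and its log2 difference from untreated at 30 min (left) and 120 min (right). Horizontal lines give the median of the members (solid) and of all tested probe sets (dashed) up to and over a signal of 100. At 120 min 45 of the 55 brighter members lie above 0, and at 30 min 38 do.

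At 120 min all 3 NECA arrays were above all 3 untreated arrays for 19 of the 75 members (12.3% of all tested), and below them for 2 (13% of all tested). All 19 were among the 55 members with a signal over 100, where 17.5% of all such probe sets lay fully above. None of the 55 lay fully below (11.4%). The 19 probe sets measured Ndufa6, Ndufa13, Ndufb2, Ndufb6, Ndufb7, Ndufb8, Ndufb10, Ndufs1, Ndufs3, Sdhb, Uqcr10, Uqcrh, Cox7a2, Atp5c1, Atp5e, Atp5o and Atp5d, the last with 3 probe sets. The 2 below were dim probe sets of Atp5d and Atp5g1. At 30 min 9 members lay fully above (6.11% of all tested) and 4 fully below (8.65%). Of the 55 brighter members, 9 lay above (8.25%) and 1 below (5.21%). The 9 measured Ndufa6, Ndufa13, Ndufb6, Ndufv3, Sdhc, Atp5e, Atp5o and, with 2 probe sets, Atp5c1. The 4 below measured Cox6b1, Cox8c and, with 2 probe sets, Atp5g1.

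**Figure D2:**
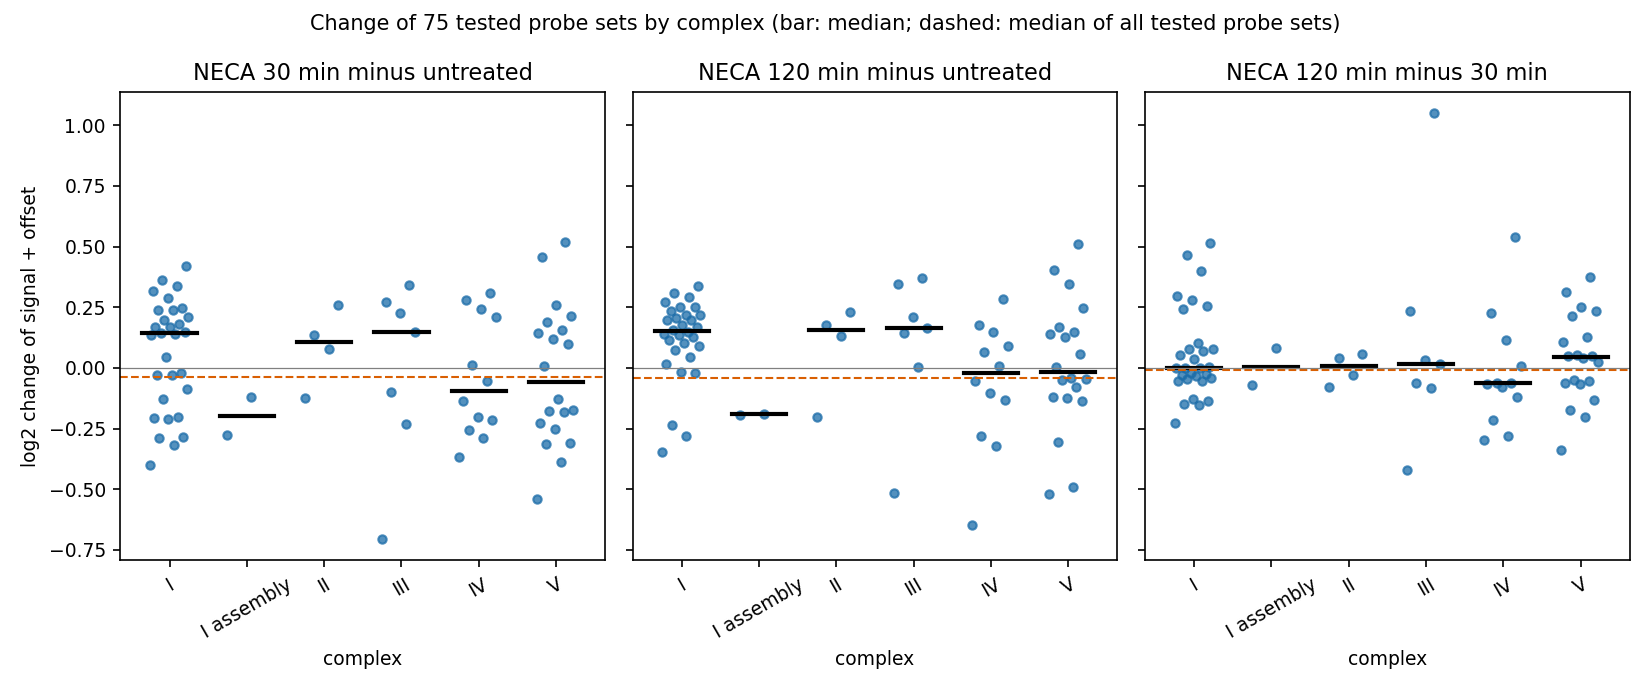
Log2 differences of the 75 tested member probe sets by complex, for 30 min against untreated, 120 min against untreated and 120 against 30 min. Points are probe sets, bars are medians of a complex, and the dashed line is the median of all 7851 tested probe sets. At 120 min the medians of complexes I, II and III lie at 0.15, 0.15 and 0.16, and those of complexes IV and V at −0.02. Complexes IV and V hold a larger share of dim probe sets than the others. Over all members the 120 min median was 0.15 above a mean signal of 100 and −0.16 up to it. The complexes were not compared at equal signal, and the part of signal level in their medians was not tested.

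Complex I, which oxidises NADH, had 25 of 30 tested probe sets with a positive difference at 120 min, with a median of 0.15, a lowest value of −0.35 and a highest of 0.34. At 30 min 18 of 30 were positive, with a median of 0.14. Its core subunits carry the flavin and iron-sulfur clusters. Ndufs1, the largest iron-sulfur subunit, had signals of 239, 228 and 270 in untreated cells, 182, 249 and 174 at 30 min, and 276, 287 and 271 at 120 min. Both low values were those of the 30 min replicates 1 and 3, and all 120 min arrays lay above all 30 min arrays, by 0.47 ± 0.15 (log2 difference ± SE, limma adjusted p = 0.172). Of the 75 tested members it alone had all 120 min arrays above all 30 min arrays (7.44% of all tested), and 0 had them all below (9.07%). Without the 30 min replicate 2 that difference was 0.62 and passed (limma adjusted p = 0.0216). That replicate was the highest of its group, so leaving it out enlarges the difference. Ndufs1 passed with no other array left out.

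The flavoprotein Ndufv1, which binds NADH, stayed within its spread, with mean signals of 1017 ± 76.2, 999 ± 87.9 and 1071 ± 62.4 (SD, n = 3) in untreated, 30 min and 120 min cells. Ndufv2, its iron-sulfur partner, differed by 0.14 and 0.22 at 30 and 120 min with 1 probe set, and by −0.02 and 0.01 with its dimmer one. Ndufs3, a core subunit that itself carries no cluster, was 304 ± 8.5, 339 ± 42.4 and 339 ± 36.8. None of these differences passed.

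Among accessory subunits of the membrane arm, Ndufb6 had signals of 489, 539 and 513 in untreated cells, 646, 548 and 822 at 30 min, and 606, 653 and 697 at 120 min. Every NECA array was above every untreated one. Its log2 difference was 0.36 ± 0.15 at 30 min (limma adjusted p = 0.553) and 0.34 ± 0.15 at 120 min (limma adjusted p = 0.306). Ndufb8, of the same arm, had 313, 308 and 364 in untreated cells, 472, 349 and 519 at 30 min, and 381, 446 and 368 at 120 min. The 30 min replicate 2 overlapped the untreated arrays, and the 120 min arrays lay above them by a small margin (0.27 ± 0.16, limma adjusted p = 0.445). Ndufv3, an accessory subunit of the NADH-binding arm, was high at 30 min, with 241, 207 and 270 against 191, 173 and 205, and at 120 min had 199, 195 and 213, which overlapped the untreated arrays. Its 30 min difference was 0.32 ± 0.13 (limma adjusted p = 0.557).

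Other complex I members were low on some NECA arrays and not on others. Ndufa9, an accessory subunit next to the ubiquinone site, had 354, 298 and 146 at 30 min, against 271, 248 and 358 in untreated cells and 353, 397 and 332 at 120 min. The 30 min replicate 3 alone lay far below the other 8 arrays, and the difference between the times was 0.51 ± 0.27 (limma adjusted p = 0.445). Ndufa5, an accessory subunit of the matrix arm, had 519, 512 and 616 in untreated cells, 409, 539 and 379 at 30 min and 500, 666 and 471 at 120 min. Here the 30 min replicates 1 and 3 were low and replicate 2 was not. The 120 min replicates 1 and 3 were also below all untreated arrays, by a smaller margin. Of the remaining accessory subunits, Ndufa6, Ndufa8 and Ndufa13 differed at 120 min by 0.20, 0.25 and 0.20, Ndufb10, Ndufb11, Ndufb7, Ndufb9 and Ndufb5 by 0.24, 0.21, 0.13, 0.14 and 0.13, and Ndufab1, the acyl carrier protein, by 0.29. Ndufa7 and Ndufc1 were at 0.16 and 0.10, Ndufb3 at 0.05 and Ndufa2 at −0.02, while 2 of the dimmer ones, Ndufa1 and Ndufa10, were at −0.28 and −0.24 and Ndufc2, also dim, was at 0.25. The 2 assembly factors, which help to build the complex but are not part of it, were dim, and differed at 120 min by −0.19 each.

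Complex II, the succinate dehydrogenase that also serves the citric acid cycle, had 3 of 4 probe sets positive at both times. Sdhb, its iron-sulfur subunit, had 318, 332 and 379 in untreated cells, 405, 337 and 507 at 30 min, and 394, 414 and 401 at 120 min. The 120 min arrays lay above the untreated ones, by 0.23 ± 0.15 (limma adjusted p = 0.489). The membrane anchor Sdhc averaged 467 ± 8.66 without NECA, 514 ± 15.0 after 30 min of it and 534 ± 91.1 after 120 min, with only the 30 min group clear of the untreated one. The other anchor, Sdhd, was 493 ± 5.04, 526 ± 92.8 and 544 ± 59.8. Sdha, the flavoprotein, was dim, at 74.4 ± 5.93, 69.0 ± 18.7 and 63.9 ± 9.96, with all groups overlapping.

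Complex III, which passes electrons from ubiquinol to cytochrome c, had 6 of 7 probe sets positive at 120 min and a median of 0.16. Its subunit Cyc1 falls outside the member rule and is given with the electron carriers. Uqcrh, the hinge protein near cytochrome c1, had signals of 441, 453 and 501 in untreated cells, 284, 512 and 152 at 30 min, and 508, 631 and 646 at 120 min. At 30 min replicates 1 and 3 were below all untreated arrays and replicate 2 above them, and at 120 min all 3 arrays were above. The log2 difference was −0.70 ± 0.31 at 30 min (limma adjusted p = 0.577), 0.35 ± 0.31 at 120 min (limma adjusted p = 0.620) and 1.05 ± 0.31 between the times (limma adjusted p = 0.137). Without the 30 min replicate 2, Uqcrh passed at 30 min (−1.13, limma adjusted p = 0.0389) and between the times (1.47, limma adjusted p = 0.00375). That replicate was the highest of its group, so leaving it out enlarges both differences. Uqcrh passed with no other array left out.

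Uqcr10, a small subunit of this complex, had 483, 557 and 659 in untreated cells, 740, 603 and 813 at 30 min, and 685, 730 and 775 at 120 min. The 120 min arrays were all above the untreated ones, by 0.37 ± 0.15 (limma adjusted p = 0.258), and the 30 min replicate 2 was not. Uqcrb, a subunit at the ubiquinone-binding side, went the other way, with 210, 221 and 97.8 in untreated cells, 122, 217 and 139 at 30 min and 97.2, 135 and 112 at 120 min. Its untreated replicate 3 was as low as the 120 min arrays, so the groups overlapped and the difference of −0.52 ± 0.29 did not pass (limma adjusted p = 0.417). The core proteins Uqcrc1 and Uqcrc2 differed by 0.21 and 0.003 at 120 min, and Uqcr11 and Uqcrq by 0.15 and 0.16.

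Complex IV, the cytochrome c oxidase, had 6 of 12 tested probe sets positive at 120 min and a median of −0.02. Cox6b1, which lies on the intermembrane-space side of the enzyme, had 95.7, 97.3 and 94.6 in untreated cells, 79.3, 56.9 and 84.4 at 30 min, and 95.8, 41.2 and 49.2 at 120 min. The 30 min arrays were all below the untreated ones, while the 120 min replicate 1 was at the untreated level. The 120 min difference was −0.65 ± 0.24 (limma adjusted p = 0.221), and without that replicate it was −0.97 and passed (limma adjusted p = 0.0165). That replicate was the highest of its group, so leaving it out enlarges the difference. Cox6b1 passed with no other array left out. Cox8c, an isoform of the smallest subunit, had 243, 275 and 241 in untreated cells, 214, 203 and 198 at 30 min, and 251, 191 and 183 at 120 min. Here too the 30 min arrays were all below the untreated ones and the 120 min replicate 1 was not, and the differences of −0.29 ± 0.14 and −0.28 ± 0.14 did not pass (limma adjusted p = 0.587 and 0.376). The other probe set of Cox8c, left out by the filter, had signals of only 1.04 to 5.75, so the level of this gene is uncertain.

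Cox7a2, the widely expressed isoform of subunit 7a, had 947, 991 and 1123 in untreated cells, 1190, 1062 and 487 at 30 min, and 1132, 1260 and 1343 at 120 min. The 30 min replicate 3 was at 51.4% of the lowest other array, while the 120 min arrays were all above the untreated ones (0.29 ± 0.26, limma adjusted p = 0.622). Of the subunit 6a isoforms, the liver-type Cox6a1 was 1259 ± 98.9, 1503 ± 274 and 1430 ± 184, and the muscle-type Cox6a2 was dim at 45.9 ± 2.78, 42.0 ± 12.6 and 49.4 ± 3.91. Cox5b differed by 0.15 at 120 min, Cox7b by −0.10, and Cox7a2l, which links complexes III and IV, by 0.06. Cox4i1, the ubiquitous isoform of subunit 4, was dim with both probe sets, and its 120 min differences were 0.01 and −0.13.

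The ATP synthase had 10 of 20 probe sets positive at both times. Atp5o, the OSCP subunit that joins the catalytic head to the peripheral stalk, had the lowest F-test p of all members (0.0111, limma, adjusted p = 0.185). Its signals were 235, 220 and 258 in untreated cells, 325, 299 and 365 at 30 min, and 279, 352 and 404 at 120 min. All 6 NECA arrays were above all 3 untreated arrays. The difference was 0.46 ± 0.15 at 30 min (limma adjusted p = 0.531) and 0.51 ± 0.15 at 120 min (limma adjusted p = 0.111), the latter a fold of 1.42 with a 95% interval of 0.18 to 0.84 on the log2 scale. Without the 120 min replicate 1 the 120 min difference was 0.65 and passed (limma adjusted p = 0.0469). That replicate was the lowest of its group, so leaving it out enlarges the difference. Atp5o passed with no other array left out.

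In the catalytic head, Atp5e, the epsilon subunit of the rotor stalk, had 300, 310 and 327 in untreated cells, 427, 349 and 612 at 30 min, and 332, 380 and 502 at 120 min. All NECA arrays were above the untreated ones, with differences of 0.52 ± 0.20 and 0.35 ± 0.20 (limma adjusted p = 0.552 and 0.440). Atp5a1, the alpha subunit of the head, was 811 ± 38.7, 882 ± 64.3 and 843 ± 15.9, and its 95% interval at 120 min was −0.18 to 0.29. Atp5c1, the gamma subunit at the centre of the rotor, differed by 0.13 and 0.17 at 120 min with its 2 probe sets.

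Atp5d, the delta subunit of the same rotor stalk, had tested probe sets that disagreed. Its 3 brighter tested probe sets had all 120 min arrays above untreated, by 0.40, 0.14 and 0.15, while the dimmest had all of them below, by −0.52. The signals of the first of these were 137, 158 and 169 in untreated cells and 204, 227 and 189 at 120 min, and those of the dimmest were 39.96, 50.3 and 38.4 and then 34.4, 33.1 and 17.4. Neither passed (limma adjusted p = 0.249 and 0.292), and no direction can be given for this gene.

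In the membrane part and stalk, Atp5j, the F6 stalk subunit, had 431, 371 and 436 in untreated cells, 297, 394 and 306 at 30 min and 400, 440 and 336 at 120 min, again with the 30 min replicates 1 and 3 low (−0.31 ± 0.15 at 30 min, limma adjusted p = 0.587). Small membrane proteins of the complex were uneven in the same arrays. Atp5mpl had 525, 581 and 590 in untreated cells, 308, 619 and 300 at 30 min and 210, 893 and 338 at 120 min, and Atp5md had 915, 1097 and 1039, then 646, 1179 and 608, then 685, 1154 and 996. For both, replicate 2 was the highest array of each NECA group. Atp5l, subunit g, was low on the 30 min replicate 3 alone, with 1429, 1187 and 777 at 30 min, 1027, 1320 and 1270 in untreated cells and 1313, 1453 and 1515 at 120 min. The proton-conducting c-ring genes Atp5g1 and Atp5g2 differed at 120 min by −0.31 and −0.12 (Atp5g1, 2 dim probe sets) and by −0.04 (Atp5g2), and none passed. The stalk subunit Atp5pb and the small membrane subunits Atp5j2 and Atp5k were dim, with 120 min differences of −0.04, −0.05 and 0.004.

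Between 120 and 30 min the positive differences with the smallest p were those of Uqcrh, Ndufs1, Cox7a2, Ndufa9 and Atp5l (0.37 ± 0.19), all with low signals on the 30 min replicate 3. The negative ones were −0.30 for 1 probe set of Cox4i1, −0.23 for Ndufv3, −0.34 for the dimmest of Atp5d, −0.20 for Atp5g2 and −0.42 for Uqcrb. None of the 10 passed (lowest limma adjusted p = 0.137).

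**Figure D3:**
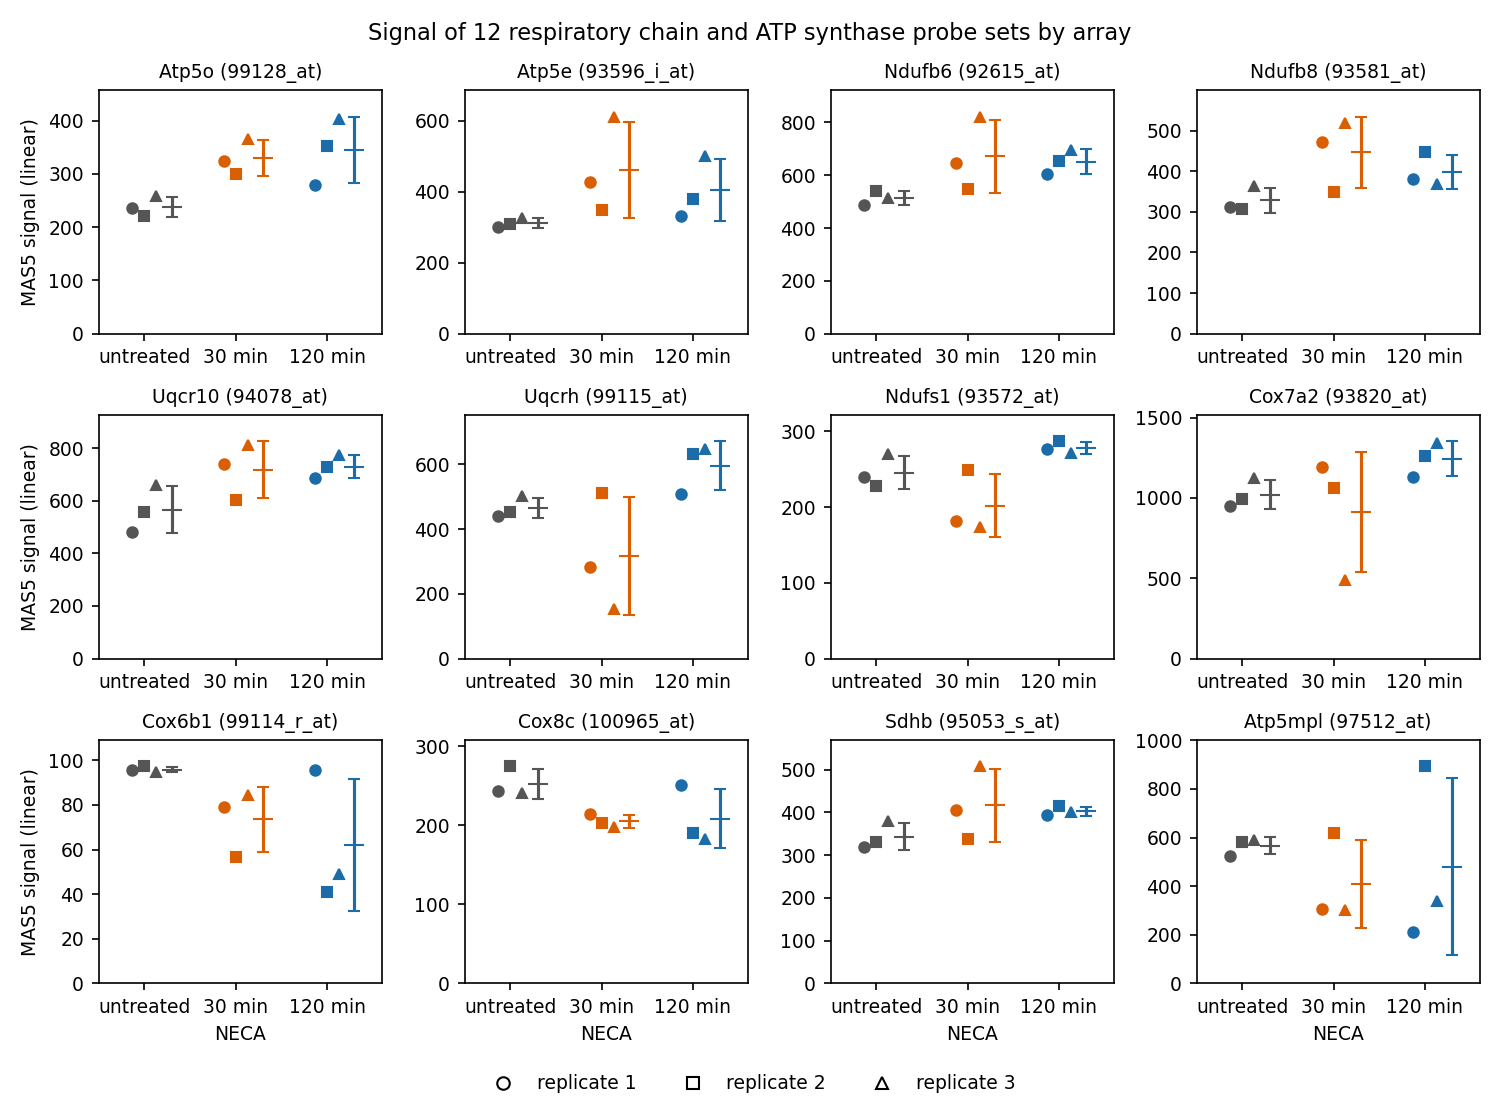
Linear MAS5 signals of 12 member probe sets on each array, by group, with an axis from 0 and the symbol giving the replicate number, and the group mean ± SD (n = 3) beside the points. For Atp5o all NECA arrays lie between 279 and 404, above the untreated arrays at 220 to 258, while Uqcrh spans 152 to 512 within the 30 min group.

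Of the 20 genes with 2 or more probe sets, 9 had at least 2 that were tested, and 4 of these gave opposite signs at 120 min. Beside Atp5d they were Atp5l (0.25 and −0.12), Ndufa3 (0.12 and −0.35) and Cox4i1 (0.01 and −0.13). The other 5 gave the same sign: Atp5c1, Atp5g1, Ndufb2 (0.22 and 0.17), Ndufv2 and Cox6c (−0.05 and −0.32). In Atp5l, Ndufa3 and Cox6c the more negative value was that of a probe set with a signal under 30.

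The arrays of the 30 min group differed from one another in the members. Relative to the mean of the untreated arrays, the median over the 75 members was 0.16, −0.02 and 0.12 on the 30 min replicates 1, 2 and 3, and 0.09, 0.10 and 0.10 on the 120 min arrays. The untreated arrays themselves lay at −0.06, −0.02 and 0.07. The quartiles of the members were −0.34 and 0.44 on the 30 min replicate 3 and −0.22 and 0.25 on replicate 1, but −0.08 and 0.09 on replicate 2. The 30 min replicate 3 was the highest of the 9 arrays for 32 of the 75 members (42.7%, against 22.8% of all tested probe sets) and the lowest for 13 (17.3%, against 18.6%). The untreated replicate 1 was the lowest array for 21 members (28%, against 9.77%).

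**Figure D4:**
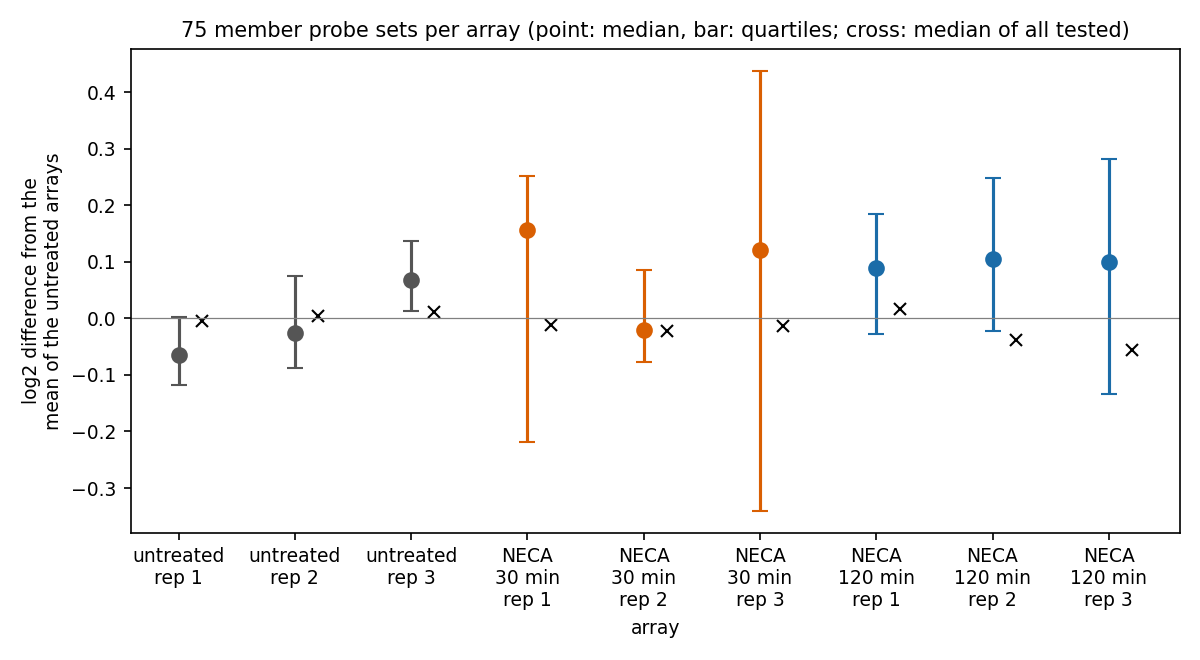
Log2 difference of each array from the mean of the untreated arrays over the 75 tested members, with the median as a point and the quartiles as a bar, and the median of all tested probe sets as a cross. The 120 min medians lie at 0.09 to 0.10, and the 30 min medians at −0.02 to 0.16 with wide quartiles on replicates 1 and 3.

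With the 30 min replicate 2 left out, 34 members lay fully above the untreated arrays (19.4% of all tested) and 14 fully below (19.8%), in place of 9 and 4. The 14 below included Ndufs1, Ndufa5, Uqcrh, Uqcrc2, Atp5j, Atp5md, Atp5mpl, Sdha, Cox6b1 and Cox8c, and the 34 above included 16 of the complex I probe sets. With the 30 min replicate 3 left out, 9 lay above (9.12%) and 6 below (14.1%). Between 120 and 30 min, 5 members were fully higher (12.2%) and 1 fully lower (12.5%) without replicate 3, and 6 higher (13.5%) and 14 lower (17.7%) without replicate 2. On the 30 min replicate 3, 6 tested members were below 70% of the lowest other array, which held for 5.46% of all tested probe sets: Cox7a2, 1 probe set of Ndufa3, Uqcrh, Ndufb3, Ndufa9 and Cox7b. The Gapdh ratio of this array was the lowest of the 9 (0.879) and not a raised one. The part of the ratio in these values was not tested.

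The genes around the respiratory chain gave no call either. Of 63 genes for electron carriers, assembly factors, the citric acid cycle and pyruvate dehydrogenase, membrane carriers and regulators of mitochondrial gene expression, 46 were on the array and 39 were tested with 49 probe sets. In each of the 3 comparisons 0 were higher and 0 lower. The electron carrier list held Cyc1, the cytochrome c1 of complex III, whose symbol the member rule left out. With its brighter probe set Cyc1 had 2122, 2370 and 2497 in untreated cells, 2742, 2243 and 2536 at 30 min and 2812, 2968 and 2802 at 120 min. On this probe set the 120 min arrays lay above all others (0.30 ± 0.11 against untreated, limma adjusted p = 0.216). A second tested probe set of Cyc1 had the opposite sign, with −0.28 ± 0.17 at 120 min (limma adjusted p = 0.461). Etfb, of the electron transfer flavoprotein, also had probe sets of opposite sign. The dimmer one had 51.9, 52.5 and 42.9 in untreated cells and lower signals on all NECA arrays, 27.9 to 35.9 (−0.54 ± 0.16 at 120 min, limma adjusted p = 0.109). The brighter one differed by 0.41 ± 0.17 at 30 min and 0.25 ± 0.17 at 120 min (limma adjusted p = 0.552 and 0.506).

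In the citric acid cycle list, Pdha1, a subunit of pyruvate dehydrogenase, had 610, 646 and 610 in untreated cells, 441, 485 and 450 at 30 min and 525, 402 and 498 at 120 min. All NECA arrays were below the untreated ones (−0.39 ± 0.13 at 120 min, limma adjusted p = 0.152). Fh1, the fumarase that follows complex II in the cycle, had 194, 188 and 196 in untreated cells and 261, 260 and 256 at 120 min (0.41 ± 0.15, limma adjusted p = 0.206). Among regulators, Nrip1, a corepressor of nuclear receptors, had 129, 105 and 126 in untreated cells and 168, 166 and 160 at 120 min (0.44 ± 0.16, limma adjusted p = 0.209), and Tfb2m, a mitochondrial transcription factor, differed by −0.63 ± 0.23 (limma adjusted p = 0.211). The assembly factor Cox17, a copper chaperone, differed by 0.36 and Surf1 by 0.06 at 120 min. The carrier Vdac3 had 157, 142 and 173 in untreated cells, 97.0, 172 and 82.7 at 30 min and 167, 180 and 104 at 120 min. It differed by −0.46 ± 0.25 at 30 min (limma adjusted p = 0.611) and by −0.10 at 120 min. The carrier Slc25a1 differed by 0.24 with 1 probe set and by −0.07 with another.

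Markers of other cell types did not pass in any comparison, among 5 of 8 pituitary hormone cell genes, 1 of 6 endothelial genes and 4 of 7 macrophage and leukocyte genes that were tested. Summed signals of 7 macrophage and leukocyte markers were 859 to 907 in untreated cells, 925 to 1094 at 30 min and 925 to 1172 at 120 min, carried by Cd14 and Cd68. Lyz2 and Csf1r also passed the signal filter, each with a dim probe set. Their means in untreated, 30 min and 120 min cells were 50.8, 39.4 and 51.9 for Lyz2 and 19.3, 16.1 and 14.7 for Csf1r. Ptprc, Itgam and Adgre1 did not pass the filter. Summed signals of 7 measured pituitary hormone genes were 311 to 334, 258 to 323 and 205 to 313, and those of 6 endothelial markers were 51.7 to 66.5, 52.7 to 57.0 and 39.2 to 60.1. The folliculostellate sum was 7715 to 8480, 7144 to 8119 and 7537 to 8652. None of these markers passed. Gja1, the gap junction protein connexin 43, came nearest, at 0.61 ± 0.15 at 120 min (limma adjusted p = 0.0527), and Gfap, an intermediate filament protein, differed by −0.73 ± 0.33 at 30 min (limma adjusted p = 0.577). The part of these differences in the members' values was not tested.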

How the data were processed

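RNA of 9 TtT/GF cultures was labelled as biotinylated cRNA and hybridised, per the labels' protocols. The deposited table holds 1 linear intensity per probe set and array. The submitters' processing notes name MAS5 for it, and its version is not given in the sources used here. Groups came from the sample titles and agent labels. Gene symbols came from GEO's platform annotation, which can be old, and 10 matching probe sets with several symbols were left out. All 98 members were found in the RefSeq gene table. Detection calls were not used here.

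The deposited values were turned into log2(signal + 7.93), the offset being the 25th percentile. Probe sets above 20.5 in at least 3 arrays were tested with limma 3.58.1 in R 4.3.3 (all 9 arrays in 1 fit, eBayes with an intensity trend, two-sided, Benjamini-Hochberg over 7851 probe sets). The median standard error was 0.18 (log2). The number of arrays limits the precision. The fit was also run on simulated data, and the outcome is not given here. The simulated noise was independent between probe sets, so it held no shifts of whole arrays and cannot show how the fit handles them.

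Named are the 5 members with the smallest p in each direction of each comparison, the 3 with the smallest F-test p of each complex, members left out by the filter, genes with several probe sets, and of the other lists the 2 genes with the smallest p. Members named for other reasons were chosen after their values were seen. The members and lists were chosen with earlier results of these data known. Alternatives covered the offset, filter, quantile normalization, groups in the fit, intensity trend, replicate block, Gapdh ratio and each array left out. Added after seeing the data were 1 probe set per gene, probe sets without a suffix, a mean signal over 100, and non-overlap without the 30 min replicate 2 or 3.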

Additional observations from a re-analysis of the deposited data

How the results depend on the processing

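The 732 values recomputed under alternatives included 711 that kept their direction and side of the threshold or stayed within the limits set for counts and medians, and of 30 results for named probe sets none reversed in direction. The members' median at 30 min was 0.14 with the filter at the 60th percentile and 0.15 with a mean signal over 100, in place of 0.05, and without a filter it turned to −0.02, over 98 probe sets. Without a filter, 1 member was lower at 120 min and 1 passed the F-test (a dim second probe set of Ndufaf1, −0.80, limma adjusted p = 0.018), with all its signals below the filter. With each array left out in turn, the count of members that passed ranged from 0 to 1 (lower at 30 min), 0 to 1 (higher at 120 min), 0 to 1 (lower at 120 min), 0 to 2 (higher at 120 against 30 min) and 0 to 2 (F-test). Shares over all tested probe sets in these fits, and in the fit without a filter, are not given here. These counts can therefore not be set against a background. With each array left out, the medians ranged from 0.04 to 0.10 at 30 min, 0.08 to 0.15 at 120 min and −0.06 to 0.05 between the times, where the sign turned. The members concerned were Uqcrh and Ndufs1 without the 30 min replicate 2, and Cox6b1 and Atp5o without the 120 min replicate 1. The causes were not tested. With quantile normalization the medians were 0.08, 0.08 and −0.01, over 74 members.

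The labels do not say whether replicate numbers pair the arrays. Correlations of same-numbered arrays, on deviations from the group means, ran from −0.172 to 0.23. Those of different-numbered arrays ran from −0.215 to 0.231. With 3 arrays a group, these values cannot show that the cultures were unpaired. With the replicate block, 0 members passed in any comparison and the medians stayed at 0.05, 0.13 and 0.002. Signals near the filter are the least certain, and with 3 arrays a group small differences such as the members' medians are within reach of single arrays.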
